A study of Mus musculus with 30 samples.

Results

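The livers of mice held on 2 protein-restricted diets, 5% casein (Cas-5%) and 10% soy (Soy-10%), were compared with each other by their mRNA. The comparison took every liver whose label gave one of these diets, 6 per diet, which is 12 of the 30 livers in the series. Both diets were low in the sulfur amino acids methionine and cysteine, and they differed in the source and the amount of protein. The labels gave 0.15 g of methionine and 0.1 g of cysteine per 100 g of the Cas-5% diet, and 0.13 g of each per 100 g of the Soy-10% diet, whose soy content was labelled as 11.5%. The other 18 livers came from mice on 20% casein (Cas-20%), 20% soy (Soy-20%) and 20% soy with added methionine and cysteine (Soy-20% + SAA). They served here to ask whether a difference between the restricted diets was also found between casein and soy at 20% protein. Their levels are given for some genes, and they entered alternative fits of the restricted comparison, but not its main fit.

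All mice were male C57BL6/J, arrived at 9 weeks of age, and were held for 2 weeks on a 20% diet of their own protein source before the switch at 12 weeks of age. The Cas-5% mice had therefore been fed casein and the Soy-10% mice soy before the restriction began. Livers were taken at 6 months of age after 12 weeks on the diet and a 4 h fast. Source and amount of protein changed together between the restricted diets, as did the earlier diet, and these cannot be told apart. In whole liver, fewer cells of a type and less RNA per cell cannot be told apart either.

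When an amino acid runs short, uncharged tRNA activates the kinase GCN2, translation initiation slows and the transcription factor ATF4 is made. ATF4 induces genes for amino acid synthesis, amino acid import, tRNA charging and one-carbon metabolism. The liver is also the main site of amino acid breakdown and urea synthesis, and of the cytochrome P450 and conjugating enzymes that clear foreign compounds. Its FGF21 and IGFBP1 are secreted proteins that respond to protein intake and to insulin.

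Total counts were 7694015 to 13050108 in the 12 livers, with medians of 10081019 on Cas-5% and 10651123 on Soy-10%. The first principal component held 26.5% of the variance and placed the Cas-5% livers between −14.8 and −8.4 and the Soy-10% livers between 6.9 and 32.3. Soy-10% liver 4 lay apart at 32.3 on that component and at −28.1 on the second component (18.3% of the variance), where the other Soy-10% livers lay between 8.1 and 16.9. That liver held 11135 counts over 16 pancreatic acinar genes other than Cela1, where the other Soy-10% livers held 2 to 5 and the Cas-5% livers 0 to 8. Counts of changed genes are therefore also given without it. Hepatocyte markers summed to 865924 to 1073994 normalized counts on Cas-5% and 863778 to 972165 on Soy-10%, and the ranges overlapped. Each liver came from 1 mouse.

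Of 12041 genes tested, 1292 (10.7%) differed between the restricted diets at an adjusted p of 0.05 or less (edgeR's quasi-likelihood test with Benjamini-Hochberg adjustment). Among these, 553 (4.59% of the genes tested) were higher on Cas-5% and 739 (6.14%) were lower. Most differences were small: the median log2 fold change was 0.46 for genes that were higher on Cas-5% and −0.34 for genes that were lower, and 105 genes (0.872%) passed an absolute log2 fold change of 1, 54 of them higher and 51 lower. With a filter of at least 10 counts in every liver, 55 genes passed that fold change. In 706 genes (5.86%) the 6 livers of one diet did not overlap the 6 of the other, and 493 of these were lower on Cas-5%. Without Soy-10% liver 4, 1317 genes were called, of which 1111 were among the 1292. Below, levels are normalized counts (counts divided by a library size factor), given as the lowest, median and highest of 6 livers. Positive log2 fold changes are higher on Cas-5%. Counts of list members are to be read beside the shares over all genes: 4.59% higher, 6.14% lower and 5.86% without overlap.

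The largest rises on Cas-5% included Phgdh and Aldh1l2, which are on a list of ATF4 targets. Of 35 tested genes on that list of ATF4 and amino acid response targets, 18 were higher on Cas-5% and 2 were lower, against 4.59% and 6.14% over all genes, and the list median was 0.32 against 0.014 over all genes. Leaving out each liver in turn gave 15 to 18 higher members, and 18 without Soy-10% liver 4. Phgdh, the first enzyme of serine synthesis (chr3:98313170-98339990, GRCm38), had 16.7, 39.4 and 62.1 normalized counts on Cas-5%. On Soy-10% it had 0, 2.88 and 6.46, and the diets did not overlap. Its log2 fold change was 3.57 ± 0.42 (SE; adjusted p = 4.26e-05), and the 6 Cas-20% livers were all at 0. Psat1, the next enzyme of that pathway, had 131, 155 and 172 on Cas-5% and 26.4, 56.5 and 93.1 on Soy-10% (log2 fold change 1.43 ± 0.21, adjusted p = 0.000324). Aldh1l2, a mitochondrial folate enzyme, had 21.1, 32 and 53.4 on Cas-5%. On Soy-10% it had 5.21, 9.69 and 15.2, which is below every Cas-5% liver (log2 fold change 1.76 ± 0.26, adjusted p = 0.000298). The list of serine synthesis and folate metabolism from which these 3 genes come was split, with 6 of 21 higher on Cas-5%, 5 lower and a median of −0.05. Its lower members were Ftcd (−0.52), Aldh1l1 (−0.49), Dmgdh (−0.34), Sardh (−0.31) and Gcsh (−0.29), which break down folate derivatives, sarcosine, dimethylglycine and glycine.

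Asns, which makes asparagine (chr6:7675169-7693254), had 247, 295 and 351 normalized counts on Cas-5%. On Soy-10% it had 91.0, 155 and 209. The diets did not overlap, the log2 fold change was 0.94 ± 0.17 (adjusted p = 0.00176), and both restricted diets lay above the 6 Cas-20% livers, which had 7.75 to 46.6. Mthfd2, another mitochondrial folate enzyme, rose by 1.22 on the log2 scale and Nupr1, a stress-induced transcription cofactor, by 0.96. Atf5, Cebpg and Ddit3, transcription factors of the same response, rose by 0.41, 0.34 and 0.48. Cth, which makes cysteine from cystathionine, and Cebpb were the members that were lower, at −0.57 and −0.59, and 1 rather than 2 was lower without Cas-5% livers 2, 3, 4, 5 or 6 or Soy-10% livers 3, 4 or 5, one at a time. Atf4 itself did not pass the test (−0.04), nor did Trib3 (0.46), Chac1 (0.31) or Slc7a5 (0.90).

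Fgf21, the hormone raised in the blood by low protein intake, had 81.0, 162 and 292 normalized counts on Cas-5% and 87.1, 144 and 344 on Soy-10%. The diets overlapped almost fully, the log2 fold change was 0.04 ± 0.30 (adjusted p = 0.954), and without one liver or another it ran from −0.18 to 0.35. The medians on Cas-20% and Soy-20% were 21.4 and 43.7, and no liver of those diets exceeded 61.7.

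**Figure D1:**
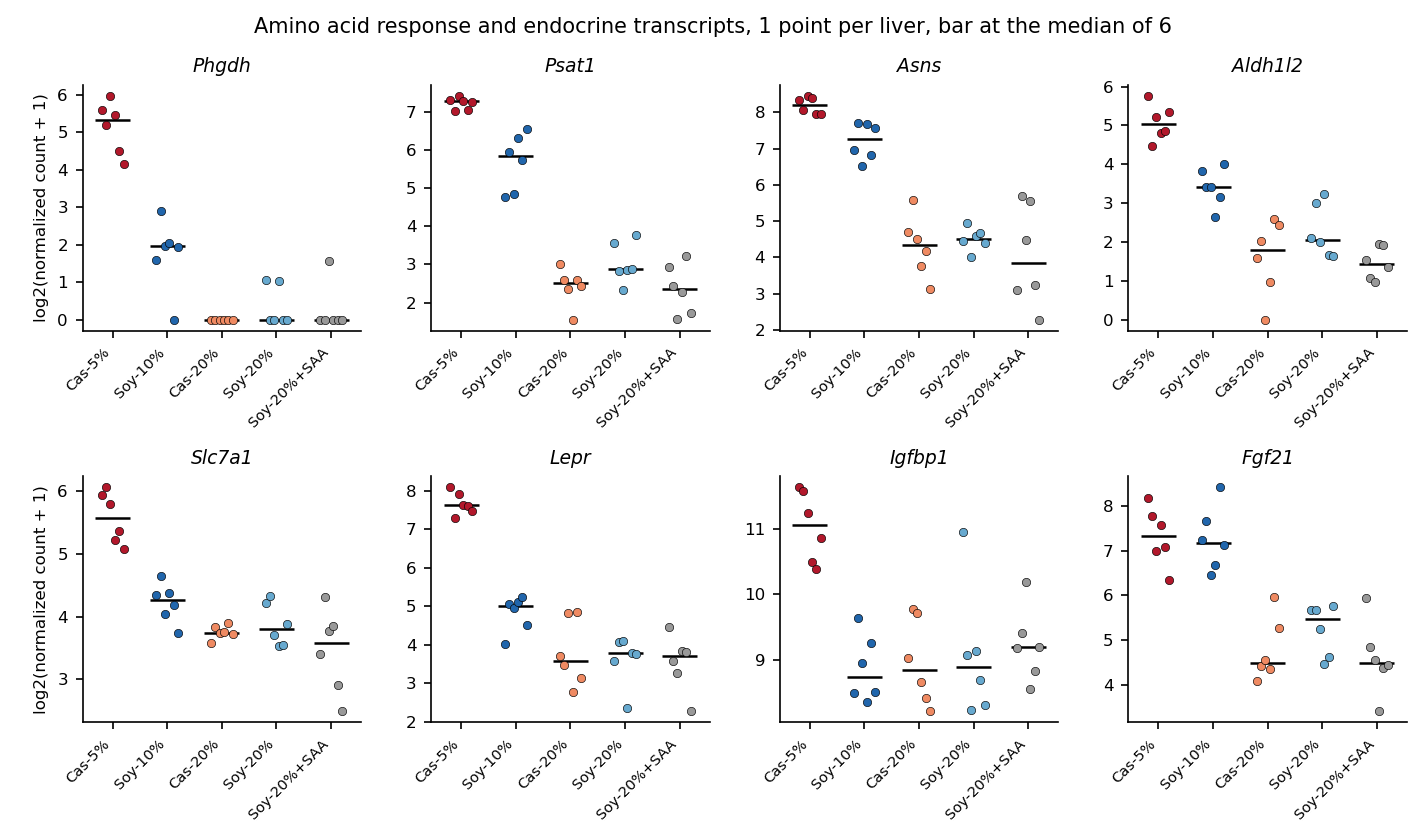
Log2(normalized count + 1) of 8 transcripts in each liver by diet, 1 point per liver (6 per diet) with a bar at the median. Phgdh, Psat1, Asns, Aldh1l2, Slc7a1, Lepr and Igfbp1 are higher in all Cas-5% livers than in all Soy-10% livers, whereas the Fgf21 ranges of both diets overlap.

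The promoters of ATF4 list members were searched for TGATGNAA, a C/EBP-ATF response motif, on both strands of windows from 250 bases before to 50 bases after the start site (RefSeq, GRCm38.p6). It was found in 1304 of 32851 windows of all genes (3.97%). For the 18 members that were higher on Cas-5%, windows were at hand for 17 genes, and 4 of these 17 held the motif (4 of 20 windows, 20%). Among 15 members that did not pass the test, 5 of the 11 genes with a window held it (5 of 13 windows, 38.5%), Fgf21 among them. A match is only a match of letters. The windows of the 4 genes that rose and, for contrast, of Fgf21 are printed 5′ to 3′ on the strand of the gene, with the motif in capitals (as TTNCATCA where it lies on the other strand).
Asns, chr6:7693160-7693459, minus strand: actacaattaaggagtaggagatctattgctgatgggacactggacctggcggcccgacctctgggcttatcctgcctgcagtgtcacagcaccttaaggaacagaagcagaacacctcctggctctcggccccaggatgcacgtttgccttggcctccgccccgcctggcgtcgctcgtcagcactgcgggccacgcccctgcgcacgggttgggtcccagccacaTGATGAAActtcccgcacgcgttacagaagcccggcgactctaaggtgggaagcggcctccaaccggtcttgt
Slc1a4, chr11:20332664-20332963, minus strand: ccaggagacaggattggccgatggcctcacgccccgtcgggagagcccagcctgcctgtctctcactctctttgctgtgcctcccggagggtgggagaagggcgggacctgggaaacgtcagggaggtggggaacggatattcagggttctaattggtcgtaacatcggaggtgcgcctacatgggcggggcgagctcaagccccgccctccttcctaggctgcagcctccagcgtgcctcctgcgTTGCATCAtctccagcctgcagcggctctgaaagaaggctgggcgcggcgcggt
Nupr1, chr7:126625421-126625720, minus strand: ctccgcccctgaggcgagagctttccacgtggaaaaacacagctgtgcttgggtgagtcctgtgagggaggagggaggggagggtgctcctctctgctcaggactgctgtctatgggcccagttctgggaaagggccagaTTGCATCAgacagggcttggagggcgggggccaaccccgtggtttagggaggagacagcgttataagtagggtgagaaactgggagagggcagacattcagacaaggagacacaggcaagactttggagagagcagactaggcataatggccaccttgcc
Gars, chr6:55037751-55038050, plus strand: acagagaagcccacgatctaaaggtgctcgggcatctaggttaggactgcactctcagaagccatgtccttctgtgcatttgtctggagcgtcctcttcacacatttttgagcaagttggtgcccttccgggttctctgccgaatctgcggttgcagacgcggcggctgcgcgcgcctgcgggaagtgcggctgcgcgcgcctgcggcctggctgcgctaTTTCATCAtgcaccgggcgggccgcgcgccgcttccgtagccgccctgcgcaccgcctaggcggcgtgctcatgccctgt
Fgf21, chr7:45615441-45615740, minus strand: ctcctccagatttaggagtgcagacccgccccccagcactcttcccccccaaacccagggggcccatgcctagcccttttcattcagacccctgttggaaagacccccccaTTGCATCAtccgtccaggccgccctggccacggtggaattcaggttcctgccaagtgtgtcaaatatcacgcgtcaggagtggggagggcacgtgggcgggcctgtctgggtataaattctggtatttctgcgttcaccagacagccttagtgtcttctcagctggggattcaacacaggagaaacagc
The motif began 23 bases before the start site in Asns, 4 in Slc1a4, 110 in Nupr1, 30 in Gars and 139 in Fgf21. The log2 fold changes of these genes between the restricted diets were 0.94, 1.12, 0.96, 0.26 and 0.04.

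Some amino acid carriers and tRNA synthetases were higher on Cas-5%. Several of these are on the ATF4 list as well, Slc7a1, Slc1a4 and Sars among them, so the counts are not separate. Of 26 tested amino acid transporters, 8 were higher on Cas-5% and 3 lower (median 0.08). Slc7a1, the carrier of cationic amino acids, had 32.6, 47.2 and 65.9 on Cas-5% and 12.3, 18.2 and 24.2 on Soy-10% (log2 fold change 1.40 ± 0.21, adjusted p = 0.00031). Slc1a4, a carrier of alanine, serine and cysteine, had 45.6, 57.8 and 72.5 on Cas-5% and 18.2, 26.4 and 38 on Soy-10% (1.12 ± 0.16, adjusted p = 0.000245). The members that were lower, Slc38a3, Slc38a4 and Slc25a15, carry glutamine, neutral amino acids and ornithine, with log2 fold changes of −0.25, −0.44 and −0.28. Of 19 tRNA synthetases, 6 were higher and none was lower (median 0.15), led by Cars, which charges tRNA with cysteine (0.56 ± 0.08, adjusted p = 0.000133). That count fell to 3 without Cas-5% liver 1, Cas-5% liver 4, Soy-10% liver 1 or Soy-10% liver 5.

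The genes of amino acid breakdown moved the other way. Over 8 lists together (110 genes tested), 56 were lower on Cas-5% and 4 were higher. The shares over all genes were 6.14% and 4.59%, and the median of the 110 genes was −0.27. The members that were higher were Asns, Glul and Aldh18a1, which make asparagine, glutamine and a proline precursor, and Kyat1, a kynurenine transaminase, which was not called without Cas-5% livers 1, 3 or 4 or Soy-10% livers 1, 3, 4 or 6. By list, lower members numbered 7 of 12 for the urea cycle and ammonia, 6 of 14 for transamination, 9 of 16 for serine, threonine and glycine breakdown, 6 of 10 for phenylalanine and tyrosine, 8 of 15 for tryptophan, 13 of 23 for the branched-chain amino acids, 6 of 10 for histidine and lysine, and 4 of 17 for proline and ornithine. List medians ran from −0.44 for histidine and lysine to −0.15 for proline and ornithine. The tryptophan count was 5 without Cas-5% liver 3, Cas-5% liver 4, Soy-10% liver 1 or Soy-10% liver 2.

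**Figure D2:**
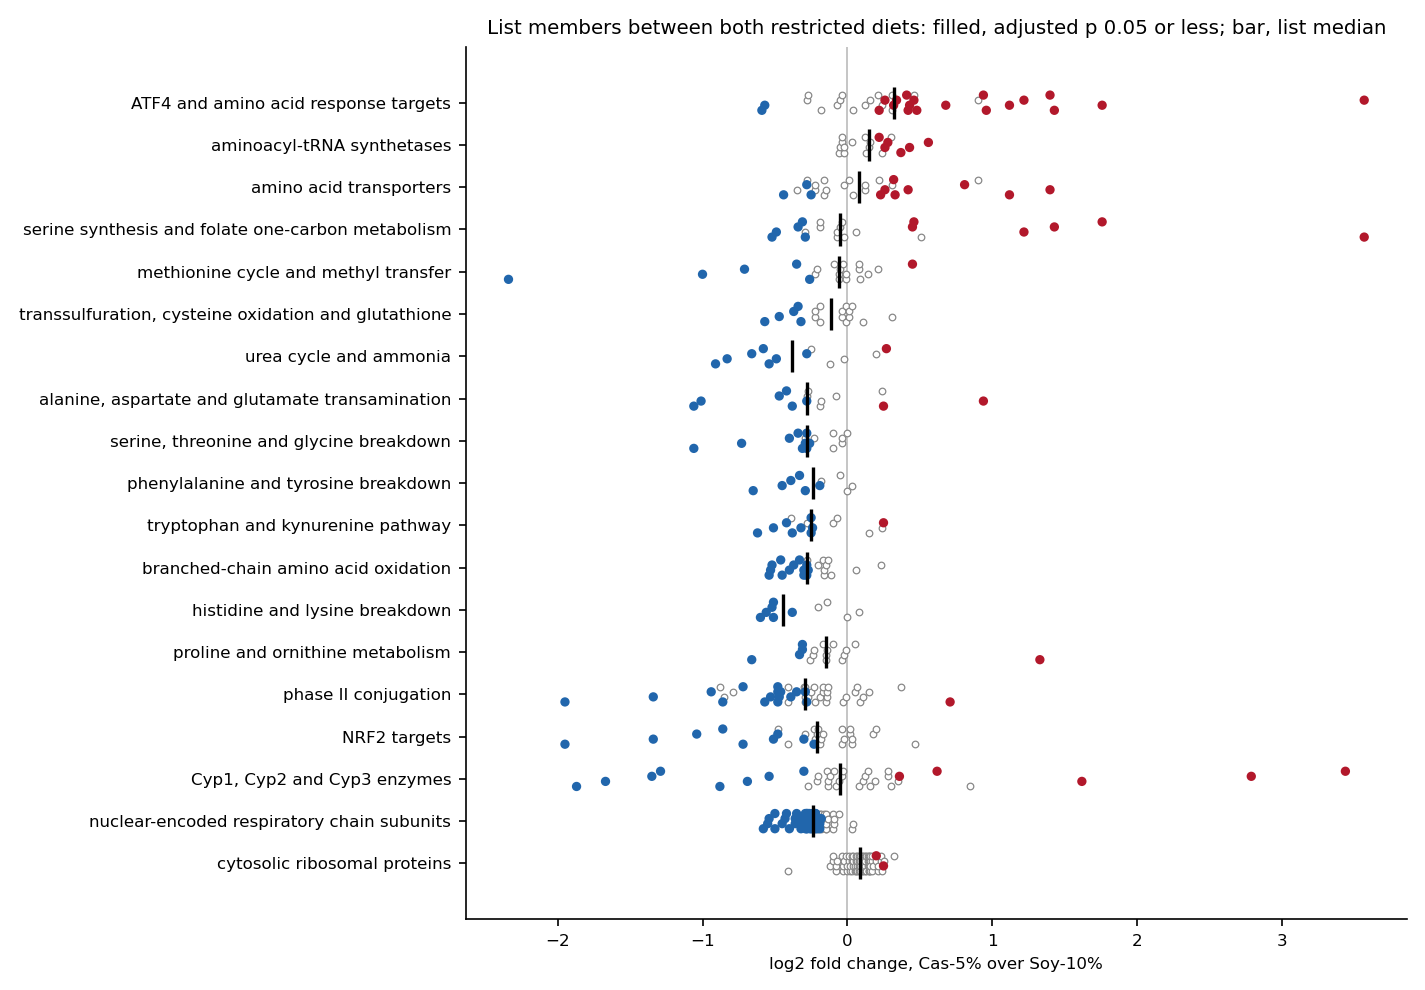
Log2 fold change (Cas-5% over Soy-10%) of every tested member of 19 gene lists. Filled points passed an adjusted p of 0.05 (red higher, blue lower on Cas-5%), open points did not, and the bar is the list median. Points of the amino acid breakdown lists lie mostly left of 0 and those of the ATF4 list mostly right of it.

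Gls2, the liver glutaminase (chr10:128194457-128210004), had 755, 871 and 1018 normalized counts on Cas-5%. On Soy-10% it had 1454, 1566 and 2126, and the diets did not overlap (log2 fold change −0.91 ± 0.10, adjusted p = 1.4e-05). Ass1, which joins citrulline with aspartate in the urea cycle, had 1236, 1623 and 1802 on Cas-5% and 2317, 2756 and 3407 on Soy-10% (−0.83 ± 0.10, adjusted p = 6.02e-05). Otc, Asl and Arg1, enzymes of the same cycle, were lower by −0.58, −0.54 and −0.49, whereas Cps1, which starts it, did not pass the test (−0.25). Abat, the GABA transaminase, had 404 to 595 on Cas-5% and 984 to 1156 on Soy-10% (−1.01 ± 0.08, adjusted p = 4.9e-07). Agxt, which converts glyoxylate to glycine, had 293 to 339.8 on Cas-5% and 497 to 1043 on Soy-10% (−1.06 ± 0.14, adjusted p = 9.02e-05). Qdpr, which renews the cofactor of phenylalanine hydroxylase, fell by 0.65, Hibadh of valine breakdown by 0.54, Aass of lysine breakdown by 0.56 and Hal, which opens histidine breakdown, by 0.60. In Gls2, Ass1, Abat, Agxt, Qdpr, Hibadh, Aass and Hal no liver of one diet lay within the range of the other.

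Some genes of methyl transfer were also lower. Of 20 methionine cycle genes, 5 were lower on Cas-5%, 1 was higher and 14 did not pass the test (median −0.05), among them Mat1a (0.21), which makes S-adenosylmethionine, and the methyltransferases Pemt (−0.05) and Gamt (−0.03). Gnmt, which uses methyl groups from S-adenosylmethionine to methylate glycine, had 9587, 10477 and 11755 on Cas-5% and 14940.3, 17934 and 19642 on Soy-10% (log2 fold change −0.71 ± 0.07, adjusted p = 1.08e-05). Bhmt, which remethylates homocysteine with betaine, had 935 to 2675 on Cas-5% and 3338 to 4485 on Soy-10% (−1.0 ± 0.18, adjusted p = 0.00181). Nnmt, which methylates nicotinamide, had 22.9, 27.6 and 38.6 on Cas-5% and 74.1, 110.1 and 291 on Soy-10% (−2.34 ± 0.32, adjusted p = 0.00017). None of these overlapped, and on Cas-20% Nnmt had 529 to 1534. The number that were higher was 0 without Cas-5% liver 1, Cas-5% liver 4 or Soy-10% liver 6, one at a time, and 2 without Cas-5% liver 2. Among 18 genes of transsulfuration, cysteine oxidation and glutathione synthesis, 5 were lower (Cth, Got1, Tst, Suox and Ethe1, −0.57 to −0.32) and none was higher, while Cbs (−0.01), Cdo1 (0.01) and Gclc (−0.04) did not pass the test.

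Endocrine genes were among the largest rises. Lepr, the leptin receptor (chr4:101717404-101815352), had 156, 196 and 271 normalized counts on Cas-5% and 15.2, 31.2 and 36.5 on Soy-10%. The diets were far apart (log2 fold change 2.88 ± 0.17, adjusted p = 2.62e-08). Igfbp1, a secreted binder of insulin-like growth factors, had 1346, 2140.3 and 3178 on Cas-5% and 329.5, 431 and 796 on Soy-10% (2.18 ± 0.24, adjusted p = 1.66e-05). Igfbp2 had 1539 to 2514 on Cas-5% and 577 to 1410.0 on Soy-10% (0.92 ± 0.16, adjusted p = 0.00118). Of 18 genes of gluconeogenesis and of insulin and glucagon signalling, 6 were higher and none was lower. Besides Igfbp1 these were the phosphoenolpyruvate carboxykinases Pck2 (1.0) and Pck1 (0.49), the insulin receptor substrates Irs2 (0.72) and Irs1 (0.60), and G6pc (0.57), which releases free glucose. Igf1 (−0.16) and Ghr (−0.20) did not pass the test.

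The other genes with the largest rises were Cyp2c69, Slc34a2, a phosphate carrier, Arhgef2, Rnf225, Fut1, a fucosyltransferase, and Tmem229a, with log2 fold changes of 2.79, 2.57, 1.96, 1.84, 1.5 and 1.46. Arhgef2, a guanine nucleotide exchange factor, had 128 to 169 on Cas-5% and 29.0 to 49.0 on Soy-10% (adjusted p = 3.77e-08). The largest falls beside Nnmt were Cfd (−3.55), Cidec (−2.93), Orm1 (−2.70), Clec2h (−2.31), Gm4956 (−1.97), Gsta1 (−1.95), Cyp2c55 (−1.87), Osbpl3 (−1.84) and Snhg11 (−1.80). Orm1, an acute phase glycoprotein, had 320.3, 439 and 1337 on Cas-5% and 3133, 3653 and 6379 on Soy-10% (adjusted p = 1.28e-05). Reads of Orm1 and Orm2 (−1.27) may be hard to tell apart. Of 21 acute phase genes tested, 3 were lower on Cas-5% (Orm1, Orm2 and Saa4, a serum amyloid A at −0.48) and 3 were higher (Cp, the copper protein ceruloplasmin, at 0.35, Itih3 at 0.34 and Itih4 at 0.42). The higher count was 6 without Soy-10% liver 6, and the lower count was 5 without Soy-10% liver 2. Hp (0.06), Saa1 (−1.42) and Crp (−0.04) did not pass the test.

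Cfd and Cidec are also expressed in fat cells. Cidec, a lipid droplet protein, had 14.4, 20.6 and 25.7 on Cas-5% and 89.7, 122 and 301 on Soy-10% (−2.93 ± 0.29, adjusted p = 9.33e-06). Cfd, complement factor D, had 7.76, 20.5 and 47.5 on Cas-5% and 126, 177 and 764 on Soy-10% (−3.55 ± 0.49, adjusted p = 0.00015). The adipocyte list held 3 genes in the table, Cidec, Cfd and Fabp4, and these summed to 133 to 252 on Cas-5% and 364 to 1259.5 on Soy-10%. Fabp4 did not pass the test (−0.42 ± 0.19, adjusted p = 0.182). The part of fat tissue in the 2 falls was not tested.

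Among genes of lipid synthesis, some were called in each direction, whereas Fasn and Scd1 did not pass the test. Fasn, fatty acid synthase, had 1022, 1522 and 1801 on Cas-5% and 711, 1195 and 2012 on Soy-10% (log2 fold change 0.16 ± 0.19, adjusted p = 0.654). Scd1, the stearoyl-CoA desaturase, had 17251, 19176 and 38820.3 on Cas-5% and 23558, 30233 and 48668 on Soy-10% (−0.53 ± 0.20, adjusted p = 0.102). Both genes overlapped between the diets. Of 22 lipogenic genes, 2 (9.09%) were higher (Acaca at 0.66 and Mlxipl at 0.26) and 4 (18.2%) lower (Thrsp at −1.13, Acss2 at −0.70, Pparg at −0.64 and Agpat2 at −0.29). The lower count was 7 without Cas-5% liver 5 or Soy-10% liver 2, 9 without Soy-10% liver 1, 2 without Soy-10% liver 6, and 0 when all 30 livers, or 27 of them, were fitted together. The higher count was 1 without Cas-5% livers 1, 2 or 4 or Soy-10% livers 1, 2, 3, 5 or 6, one at a time. Of 42 genes of fatty acid oxidation and PPARA targets, 7 (16.7%) were lower and 2 (4.76%) higher, against 6.14% and 4.59% over all genes. The list median was −0.05, with 20 positive and 22 negative log2 fold changes. Pex11a, which divides peroxisomes, was at −0.66 and Fitm1 of lipid droplets at −0.88. The members that were higher, a share near that over all genes, were Cyp4a31 (1.31) and Cyp4a10 (0.66). Cpt1a (0.04) and Ppara (0.09) did not pass the test. The number that were higher was 5 without Cas-5% liver 2, 4 without Soy-10% liver 5 and 1 without Cas-5% livers 3, 4 or 6 or Soy-10% livers 3, 4 or 6.

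Many enzymes that clear foreign compounds were lower on Cas-5%, and few were higher. Of 45 conjugating enzymes, 16 (35.6%) were lower and 1, Sult1c2 (0.71), was higher (median −0.29). Of 29 NRF2 targets, 9 (31.0%) were lower and none was higher (median −0.21). Over all genes, 6.14% were lower and 4.59% higher. The conjugation and NRF2 lists share members, Ugdh and Gsta2 among them, so their counts are not separate. Nfe2l2, which encodes NRF2 itself, Nqo1 and Gclc did not pass the test (0.20, −0.41 and −0.04). Ugdh, which makes the donor for glucuronidation, had 973, 1072 and 1189 on Cas-5% and 1537, 1754 and 2009.9 on Soy-10% (log2 fold change −0.72 ± 0.07, adjusted p = 1.21e-05). Gsta2, a glutathione transferase, had 104 to 276 on Cas-5% and 364 to 594 on Soy-10% (−1.34 ± 0.19, adjusted p = 0.000194). Gsta1 and Gsta2 are close in sequence, and how reads were split between them is not known.

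The Cyp1, Cyp2 and Cyp3 enzymes moved in both directions. Of 36 tested, 8 were lower and 5 higher on Cas-5%. Cyp3a11, the main Cyp3a enzyme of mouse liver (chr5:145854426-145879964), had 10769.8, 12560.2 and 15209 on Cas-5% and 25361, 33478 and 39786 on Soy-10% (−1.35 ± 0.10, adjusted p = 4.3e-07). Cyp3a59, Cyp3a25, Cyp2c55, Cyp2a5, Cyp2f2, Cyp2c29 and Cyp2j5 were lower too (−1.87 to −0.30). The higher members were Cyp2a4 (3.44), Cyp2c69 (2.79), Cyp2c40 (1.62), Cyp2c37 (0.62) and Cyp2c67 (0.36). Cyp2a4 had 0, 34.8 and 98.0 on Cas-5% and 0, 2.23 and 10.4 on Soy-10%, so its diets overlapped (adjusted p = 0.003). Cyp2a4 and Cyp2a5, and the members of the Cyp2c and Cyp3a clusters, are near-identical in parts, and their values are uncertain for that reason. Ces2a, a carboxylesterase, had 1072 to 1456 on Cas-5% and 2645 to 3514 on Soy-10% (−1.31 ± 0.09, adjusted p = 4.39e-08). It was named after its values were seen.

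**Figure D3:**
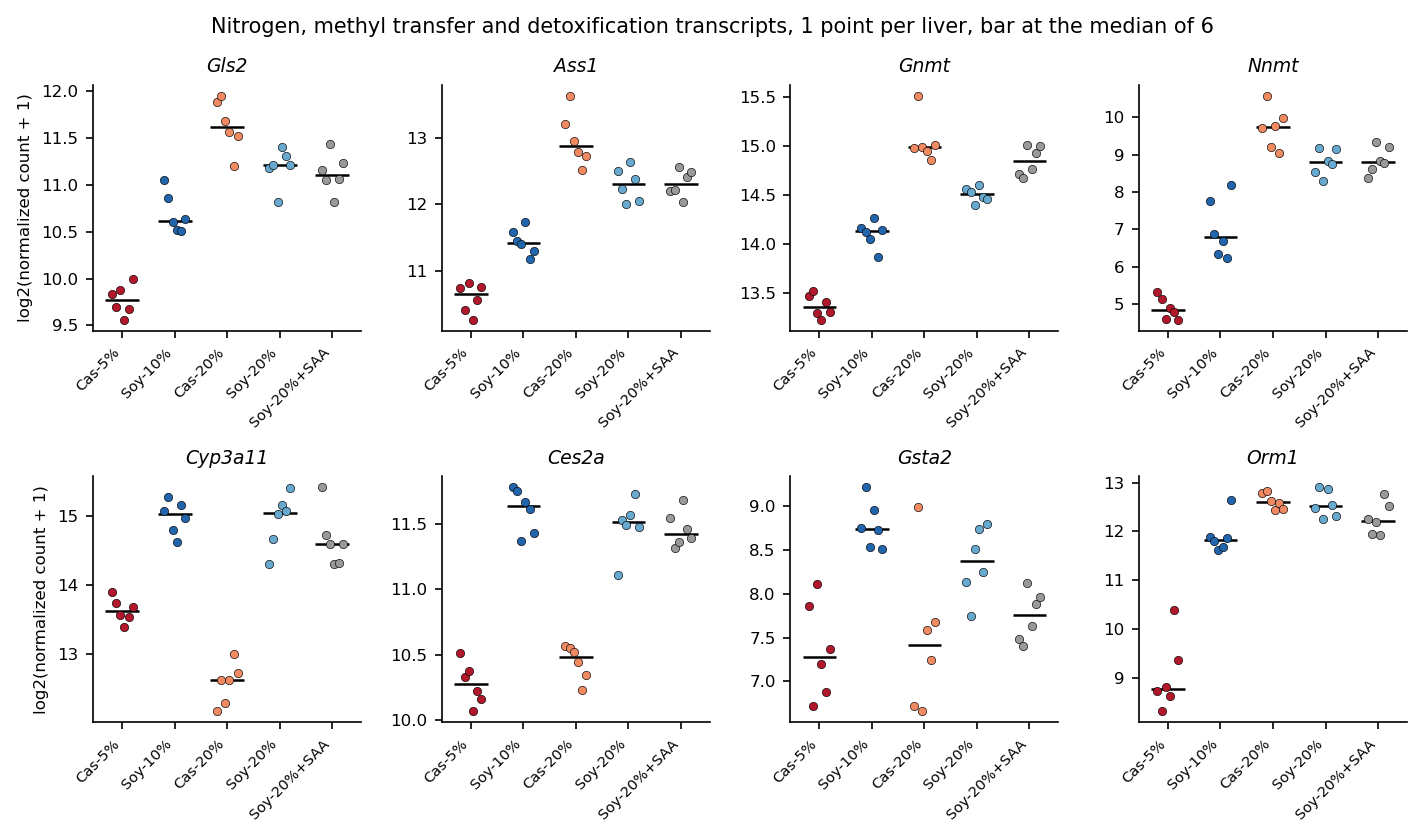
Log2(normalized count + 1) of 8 transcripts in each liver by diet, 1 point per liver (6 per diet) with a bar at the median. All 8 are lower in all Cas-5% livers than in all Soy-10% livers. On 20% casein, Gls2, Ass1, Gnmt and Nnmt have higher medians than on either restricted diet, whereas Cyp3a11 has a lower one.

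Nuclear genes of the mitochondrial respiratory chain showed a small and widespread fall. Of 78 tested, 50 (64.1%) were lower on Cas-5%, against 6.14% over all genes, and none was higher. The median was −0.24, and 36 did not overlap between the diets, against 5.86% over all genes. Leaving out each liver in turn gave 36 to 54 lower members, and 54 without Soy-10% liver 4. Ndufb3 of complex I had 1769, 1913 and 2004 on Cas-5% and 2588, 2735 and 3137 on Soy-10% (log2 fold change −0.55 ± 0.06, adjusted p = 3.3e-05). Atp5k of ATP synthase fell by 0.50 and Uqcr11 of complex III by 0.42. Of 19 mitochondrially encoded transcripts, 3 (15.8%) were lower and 1 (5.26%) was higher, with a median of −0.02. Without Soy-10% liver 4, 1 of 20 was lower and 6 were higher. Ribosomal proteins of the cytosol moved little (2 of 84 higher, median 0.09), and that count ran from 0 without Cas-5% liver 2, Cas-5% liver 6 or Soy-10% liver 5 to 7 without Cas-5% liver 1, and was 1 without Soy-10% livers 1, 3 or 6.

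The relation of level to transcript length differed between the diets, and the respiratory chain genes are short. The slope of log2 level on transcript length, in log2 units per doubling of the longest transcript, was 0.0212 to 0.0669 in the Cas-5% livers and −0.041 to 0.0034 in the Soy-10% livers, over 10661 genes. The ranges did not overlap. Over 11970 genes tested, the Spearman correlation between log2 fold change and length was 0.199 (across genes, which are not independent replicates), and with GC content near the 3′ end it was −0.019. The median transcript of the 78 subunits was 1135 nt against 3299 nt over all tested genes. Among 633 other genes at or under 1000 nt, 71 were lower on Cas-5% (11.2%) and the median was −0.06. Of the 43 subunits over 1000 nt, 28 were lower, and of the 35 at or under 1000 nt 22 were. Over all tested genes at or under 1000 nt, 14 of 668 were higher on Cas-5% and 93 lower (median −0.07). Over 4000 nt, 284 of 4422 were higher and 129 lower (median 0.058). The part of transcript length in the fall of the subunits was not tested. Nor was its part in small falls of other short transcripts or small rises of long ones.

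**Figure D4:**
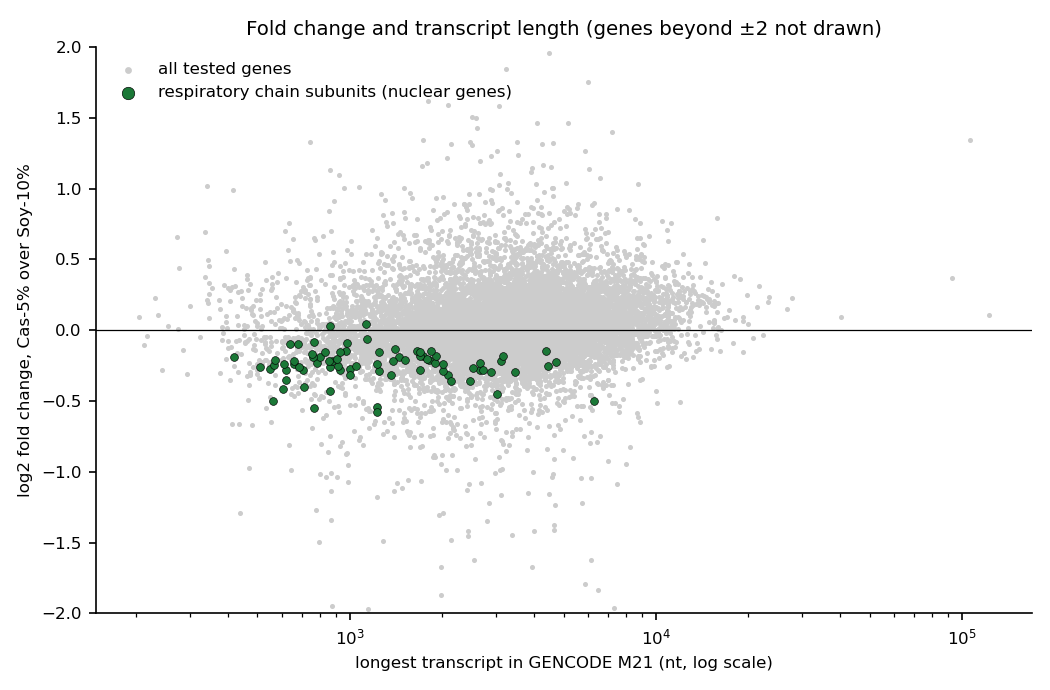
Log2 fold change (Cas-5% over Soy-10%) against the longest annotated transcript in nucleotides (log axis), 1 point per tested gene. Nuclear-encoded respiratory chain subunits (green) lie mostly between 0 and −0.5 at all lengths, and 11 of 11970 genes beyond ±2 are not drawn.

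Transporters of bile acids and drugs, and genes under growth hormone and clock control, held a few called genes. Of 23 genes of bile acid synthesis and transport, 6 were lower on Cas-5% and 2 were higher, the canalicular export pumps Abcc2 (0.27) and Abcb11 (0.16). The higher count was 2 without Cas-5% livers 2 or 5 and 1 without any other liver. Slco1a4, an uptake carrier of organic anions, had 151, 206 and 275 on Cas-5% and 335, 453 and 588 on Soy-10% (log2 fold change −1.15 ± 0.15, adjusted p = 0.000132). Abcc4, an export pump, had 18.4 to 26.4 on Cas-5% and 27.4 to 53.5 on Soy-10% (−1.04 ± 0.17, adjusted p = 0.000714). Cyp7a1, the rate-limiting enzyme of bile acid synthesis, did not pass the test (−0.11), whereas Cyp8b1, which sets the share of cholic acid, fell by 0.47. Ebp of cholesterol synthesis had 1785 to 2171 on Cas-5% and 2428 to 3003 on Soy-10% (−0.41 ± 0.07, adjusted p = 0.000801).

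Of 31 genes that are male-biased under growth hormone, 3 (9.68%) were lower on Cas-5%, near the 6.14% over all genes, and none was higher. Of 14 female-biased genes, 3 (21.4%) were higher, against 4.59% over all genes, and none was lower. No member was free of overlap between the diets. Leaving out each liver in turn gave 2 to 4 higher members, and 2 without Soy-10% liver 4. Cyp4a10, 1 of the 3, was not called with DESeq2, with the replicate number as a block, or with all 30 or 27 livers in 1 fit. It was also not called without Cas-5% livers 3, 4 or 6 or Soy-10% livers 2, 3, 4 or 6, one at a time. Cyp4a12a, a male-biased fatty acid hydroxylase, had 1344, 1731 and 2418 on Cas-5% and 2891, 3936 and 4876 on Soy-10% (−1.13 ± 0.15, adjusted p = 9.13e-05). Cyp39a1, a female-biased oxysterol hydroxylase, had 139.7 to 315 on Cas-5% and 99.7 to 178 on Soy-10%, with overlap (0.84 ± 0.18, adjusted p = 0.00649). Bhlhe41, a repressor of the circadian clock, had 5.94, 8.94 and 14.4 on Cas-5% and 18.3, 26.7 and 60.5 on Soy-10% (−1.62 ± 0.30, adjusted p = 0.00189). Rora, a clock receptor, rose by 0.23, and Arntl (0.37), Clock (0.04) and Per2 (−0.24) did not pass the test. Of 18 clock genes, 1 (5.56%) was higher, near the 4.59% over all genes. Bhlhe41 and Dbp (−0.75) were the 2 (11.1%) that were lower, against 6.14% over all genes. Dbp was not called with DESeq2 or in several fits without 1 liver. 1 male-biased gene was higher without Cas-5% liver 3 or Soy-10% liver 5, and 1 female-biased gene was lower without Cas-5% liver 1 or Soy-10% liver 3.

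Few subunits of the proteasome and the mitochondrial ribosome passed the test. Of 31 proteasome subunits, 4 (12.9%) were lower on Cas-5% (median −0.11), and 2 were without any one of Cas-5% livers 2, 3 or 4 or Soy-10% livers 1, 2, 5 or 6. Psmd14 had 604 to 681 on Cas-5% and 753 to 844 on Soy-10% (−0.29 ± 0.05, adjusted p = 0.00167). Of 75 mitochondrial ribosomal proteins, 5 (6.67%) were lower, close to the 6.14% over all genes (median −0.13). That count was 8 without Cas-5% liver 6 or Soy-10% liver 4, 3 without Soy-10% livers 1 or 5, 2 without Soy-10% livers 2, 3 or 6, and 1 without Cas-5% liver 4. Mrpl12, the member with the smallest p, had 1016 to 1074 on Cas-5% and 1279 to 1440.1 on Soy-10% (−0.35 ± 0.05, adjusted p = 0.000296).

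Markers of other cell types were looked at in the same way. Of 10 stellate cell and fibroblast markers, 6 (60.0%) were higher on Cas-5% (Lum, Col1a1, Pdgfrb, Reln, Col3a1 and Dcn, 0.89 to 0.30), against 4.59% over all genes. The list summed to 4475 to 5836 on Cas-5% and 4034 to 4579.6 on Soy-10%. That count was 3 without Cas-5% livers 2, 4 or 6 or Soy-10% liver 1. The cholangiocyte list summed to 367 to 510.2 on Cas-5% and 266 to 352 on Soy-10%, with no overlap. Of its 5 genes in the table, 2 were tested and 1 was higher. Sox9 did not pass the test (0.40, adjusted p = 0.0781), with 132 to 323 on Cas-5% and 156 to 196 on Soy-10%. None of 13 Kupffer cell and macrophage markers, 5 lymphocyte markers or 10 endothelial markers passed the test, and their summed ranges overlapped, although 2 endothelial markers were higher on Cas-5% without Soy-10% liver 4. The part of these cells in the results was not tested.

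To ask whether casein and soy differed in the same way at 20% protein, Cas-20% was compared with Soy-20%. The livers of these 20% diets do not enter the main fit of the restricted diets. Of 11875 genes, 319 (2.69%) differed, 172 (1.45%) higher and 147 (1.24%) lower on Cas-20%. DESeq2 called 606 genes in this comparison. Methionine was not matched between these diets, at 0.57 g and 0.22 g per 100 g. Of 1262 genes called between the restricted diets and tested here, 685 (54.3%) had the same sign, against 53.5% of all 11730 genes tested in both. Called in both were 80 genes, which is 6.34% of the 1262 and 25.4% of the 315 called at 20% protein, and 38 of them had the same direction and 42 the opposite. With Soy-20% + SAA in place of Soy-20%, 52.7% of the called genes had the same sign, against 51.3% of all genes tested in both. Of 55 genes called in both, 32 had the same direction. Soy-20% + SAA livers 4 to 6 stood apart in the slope of log2 level on GC content near the 3′ end (0.174 to 0.198 per 10 percentage points, against −0.0609 to 0.0539 in the other 27 livers). With Soy-20% + SAA livers 1 to 3 alone, 4 genes were called against Cas-20%, Cyp3a11 and Ces2a among them, and 2 were called in both comparisons. There 46.8% of the genes called between the restricted diets had the same sign, against 49.4% of all genes tested in both.

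Genes of both kinds were picked after their values were seen, as those with the largest change. In the same direction were Cyp3a11 (−1.35 at restriction, −2.40 at 20% protein), Cyp3a59 (−1.67 and −1.63), Cyp2c55 (−1.87 and −1.10) and Ces2a (−1.31 and −1.05). Cyp3a11 had 4586 to 8177 on Cas-20% and 20340.1 to 43713 on Soy-20%. In the opposite direction were Nnmt (−2.34 and 0.98), Lrtm1 (−1.97 and 1.54), the muscle protein gene Ttn (1.35 and −3.0) and Hamp2, a hepcidin (−1.29 and 1.78). With Soy-20% + SAA as the soy diet, Nnmt (0.91, adjusted p = 0.051), Lrtm1 (0.66, adjusted p = 0.149) and Hamp2 (1.01, adjusted p = 0.15) did not pass the test (edgeR's quasi-likelihood test) and Ttn did not pass the filter, whereas the 4 genes named for the same direction passed. The skeletal muscle list, 5 genes, summed to 37.0 to 88.3 on Cas-5%, 15.2 to 38.7 on Soy-10%, 4.83 to 13.3 on Cas-20% and 34.7 to 73.1 on Soy-20%, and its part in the Ttn values was not tested.

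The difference between both contrasts was tested directly in 24 livers, and 746 of 12450 genes (5.99%) passed. Methionine was not matched between Cas-20% and Soy-20% (0.57 g and 0.22 g per 100 g). An effect of protein level and one of methionine therefore cannot be told apart in this test. The count was 1089 with Soy-20% + SAA as the soy diet, and 407 with its livers 1 to 3 alone. For the 8 amino acid breakdown lists, 51 of 110 genes passed, each with a more negative casein minus soy difference at restriction than at 20% protein. At 20% protein 17 of 109 of these genes were higher on casein, none was lower, and their median was 0.12. With Soy-20% + SAA as the soy diet it was 0.04, with 13 higher and 1 lower. With Soy-20% + SAA livers 1 to 3 alone it was 0.10 and 0 of 109 were called, in a comparison with 4 calls over all genes. Gls2 differed by −1.37 between the contrasts (adjusted p = 5.23e-06), and Ass1 by −1.53 (adjusted p = 3.63e-05). Oat, which handles ornithine, was 1.42 higher on Cas-20% than on Soy-20% and −0.66 on Cas-5% against Soy-10%. Against Soy-20% + SAA it was 0.68 higher on Cas-20% and did not pass (edgeR's quasi-likelihood test, adjusted p = 0.0506). Of the ATF4 targets, 10 differed with a larger value at restriction and 2 with a smaller one, and 1 of 31 was called at 20% protein. For Lepr the difference was 2.55 (adjusted p = 0.00056) and for Igfbp1 2.50 (adjusted p = 0.00415). Of the NRF2 targets, 9 of 29 were lower on casein at restriction and 7 of 28 at 20% protein, with medians of −0.21 and −0.40. With Soy-20% + SAA as the soy diet, 3 of 28 were lower and the median was −0.09. With its livers 1 to 3 alone, 0 of 29 were called and the median was −0.06. The respiratory chain median at 20% protein was −0.02, with no member called, and 23 of 78 differed between the contrasts.

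**Figure D5:**
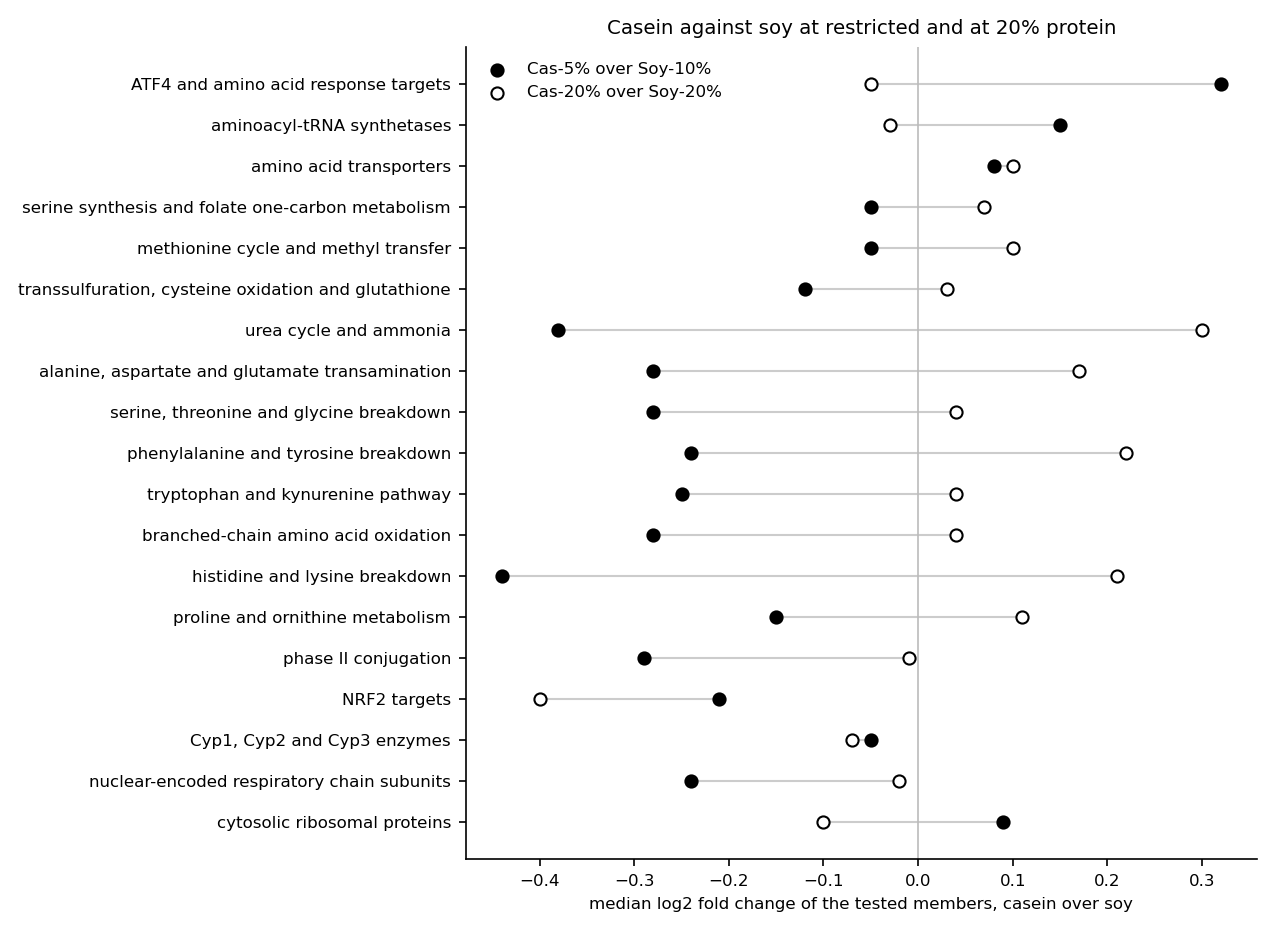
Median log2 fold change (casein over soy) of the tested members of 19 gene lists at restriction (filled) and at 20% protein (open). The amino acid breakdown lists lie below 0 at restriction and above 0 at 20% protein, and the NRF2 list lies below 0 at both.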

How the data were processed

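The authors made 3′ mRNA libraries (QuantSeq, 1 per liver) and used the Lexogen pipeline 2.3.6 on Bluebee for mapping and counting, on GRCm38 per the labels. The aligner is not given in the sources used here. The deposited raw counts table holds 14173 genes (lowest total over all livers 90). The deposited normalized table is a signal that the authors made by dividing counts by DESeq2 size factors over 30 libraries, with no length scaling and no log. Submitters' notes name R 4.0.3 and DESeq2 1.30. Symbols absent from the table were taken from GENCODE M21 for 1684 genes, and coordinates come from that release, where 12361 of 12455 in the table were equal to it.

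Depth was 7694015 to 14565542 counts per library over all 30 livers, so that a gene of 3 counts in a liver is known only within counting error. Livers were grouped by the diet in their labels, with the mouse as replicate. Counts were tested with edgeR 4.0.16 in R 4.3.3, two-sided, with filterByExpr, TMM and the quasi-likelihood F test on the livers of the diets compared, at a Benjamini-Hochberg adjusted p of 0.05. Standard errors are the absolute log2 fold change divided by the square root of F. The test of the difference between contrasts used 24 livers. The code was tested on simulated data. Alternatives were relative log expression scaling, DESeq2 1.42.0, no filter, at least 10 counts in every liver, all 30 livers in 1 fit, the replicate number as a block, Soy-20% + SAA as the 20% soy diet, and leaving out each of the 12 livers. Fits without Soy-20% + SAA livers 4 to 6 were added after the data had been seen. Principal components used log2(normalized count + 1) of genes with a mean of at least 20. Slopes on transcript length and on GC content (last 200 nt of the longest transcript) used the same scale and cutoff, and were added after the data had been seen.

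Gene lists were written by hand. The comparison, the lists and the motif were chosen with earlier results of these data known. Genes named are Fgf21, Asns, Psat1, Fasn and Scd1, the 10 largest rises and falls among called genes with a mean of 10 or more in 1 diet and no overlap, up to 3 called members per pathway list with the smallest p (the member with the highest mean where none was called), and the most abundant member of each marker list. Other list members were named to account for a count after their values were seen. Some list members are counted but not reported here by name. Tables and figures were made with Python 3.11.15, numpy 2.4.6, pandas 2.3.3 and matplotlib 3.10.9. Promoter sequences are RefSeq's, on GRCm38.p6.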

Additional observations from a re-analysis of the deposited data

Results flagged for a closer look

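Several named genes had a casein minus soy difference that itself differed between restriction and 20% protein (edgeR's quasi-likelihood test of the difference in 24 livers, adjusted p of 0.05 or less). Values are the restricted log2 fold change minus that at 20% protein. The latter is Cas-20% against Soy-20%, between which methionine was not matched. More positive at restriction were Slc34a2 (4.42), Ttn (4.34), Rnf225 (3.12), Lepr (2.55), Fut1 (2.51), Aldh1l2 (2.51), Igfbp1 (2.50), Psat1 (2.14), Arhgef2 (2.05), Tmem229a (1.62), Mylpf (1.59), Slc7a1 (1.56), Slc7a7 (1.21), Cyp39a1 (1.14), Cyp3a11 (1.04), Pck2 (0.97), Cars (0.63), Cp (0.47), Sars (0.42), Rps20 (0.37) and Rpl14 (0.31). Among amino acid breakdown genes, the difference was negative for Oat (−2.08), Agxt (−1.68), Sds (−1.66), Ass1 (−1.53), Abat (−1.39), Gls2 (−1.37), Aass (−1.07), Hal (−0.95), Qdpr (−0.87), Ivd (−0.80), Agxt2 (−0.71), Haao (−0.67), Aldh4a1 (−0.67), Gchfr (−0.62), Hibadh (−0.61), Qprt (−0.58), Prodh2 (−0.57), Gcdh (−0.57), Otc (−0.50), Pcca (−0.49), Gstz1 (−0.48) and Hao1 (−0.40). Among genes of methyl transfer, folate and transsulfuration, it was negative for Nnmt (−3.33), Bhmt (−1.57), Gnmt (−1.28), Cth (−0.94), Ftcd (−0.79) and Suox (−0.49). The other negative values belonged to Lrtm1 (−3.51), Hamp2 (−3.08), Orm1 (−2.76), Bhlhe41 (−2.60), Clec2h (−2.34), Gm4956 (−1.94), Dbp (−1.46), Scd1 (−1.20), Snhg11 (−1.19), Cyp4a12a (−1.05), Tm7sf2 (−0.73), Gstk1 (−0.72), mt-Co1 (−0.60), Ebp (−0.47), H2-Q10 (−0.45), Atp5k (−0.44), Uqcr11 (−0.41), Tpi1 (−0.38), Saa4 (−0.37), H2-K1 (−0.36) and Psmd14 (−0.35). Phgdh, which was the largest rise on Cas-5%, had no called difference (5.47, adjusted p = 0.156), with the Cas-20% livers at 0. Slc34a2, Rnf225, Aldh1l2, Fut1, Psat1 and Tmem229a did not pass the filter between Cas-20% and Soy-20%. Their means on those diets were 0.839 to 7.73 normalized counts, and Ttn had a mean of 2.35 on Cas-20%. The differences of these genes therefore rest on few counts at 20% protein.

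Within each restricted diet, 1 liver stood far from the other 5 (Dixon's test at 95%) in 25 of 268 sets of 6 values tested, and chance flags about 1 in 20. Values are normalized counts. In Cas-5% liver 1 these were Aass (1194). In Cas-5% liver 2 these were Slc34a2 (43.5). In Cas-5% liver 3 these were Gsta1 (26.2), Pcca (344) and Igfbp2 (2514). In Cas-5% liver 4 these were Cyp3a25 (2461). In Cas-5% liver 5 these were Scd1 (38820.3), Orm1 (1337) and Dbp (597). In Cas-5% liver 6 these were Psma7 (2766) and Mrps18c (540.4). In Soy-10% liver 1 these were Agxt (1043). In Soy-10% liver 2 these were Hbb-bs (20287) and summed red blood cell markers (36652). In Soy-10% liver 4 these were Bhlhe41 (60.5), Psmd14 (753), Cela1 (988) and summed pancreatic acinar cell markers (12600.0). In Soy-10% liver 6 these were Cfd (764), Orm1 (6379), Qdpr (6302), Cd5l (1931), Lrtm1 (76.0), summed Kupffer cell and macrophage markers (8964) and summed adipocyte markers (1259.5). Leaving out each of these livers kept the direction of the called genes named here.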

How the results depend on the processing

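Between the restricted diets, the number of called genes was 1292 and was within 1.5 times of that in all 19 alternatives (900 with all 30 livers in 1 fit, 1189 with 27 livers, 1464 with DESeq2, and 981 to 1317 without one liver), and no gene called in both changed direction. The count at an absolute log2 fold change of 1 was 105 and moved to 55 with at least 10 counts in every liver, a filter that tested 10845 genes rather than 12041. Between Cas-20% and Soy-20% the count moved from 319 to 606 with DESeq2, to 190 with the replicate block and to 650 with 27 livers in 1 fit; the cause was not tested. The 27 livers leave out Soy-20% + SAA livers 4 to 6, which stood apart in their slope on 3′ GC content, a choice made after seeing the data. With only Soy-20% + SAA livers 1 to 3 as the soy diet, that count was 4 and the count for the difference between contrasts moved from 746 to 407, with fewer livers. The replicate block gave 1370 calls between the restricted diets. Deviations of same-numbered livers correlated weakly, at −0.019 to 0.173, and 2 of 6 pairs were over 0.1. Of 6 Cas-5% livers, 2 correlated best with their own number. On the third principal component (9.39% of the variance), however, the Cas-5% livers rose in the order of their numbers. Among the Soy-10% livers, liver 1 was lowest and liver 6 highest on that component. Whether the diets shared an effect of replicate number was not tested. Of the 112 named genes that were called, 84 were called under every alternative. With all 30 livers in 1 fit, 22 of them were not called, among them Acaca, Pparg, Sds and Hibadh, and with 27 livers 11 were not, Acaca and Pparg but not Sds and Hibadh among them. 0 lipogenic genes were lower in either fit. The lower count of the fatty acid oxidation list was 11 with DESeq2 and 4 with all 30 livers or 27. Genes that were not called changed sign: without one liver, Fgf21 ran from −0.18 to 0.35, Cela1 from −0.63 to 0.06 (0.06 without Soy-10% liver 4), Igkc from −0.18 to 0.10 and Hbb-bs from −0.22 to 0.34. With the replicate block Hbb-bs was 0.14.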
